A study of Mus musculus with 12 samples.

Results

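The response of epididymal white adipose tissue (eWAT) to methotrexate (MTX) was compared between mice that carry and mice that lack the Mir181a2b2 locus. For each gene the contrast took the difference between MTX and vehicle in Mir181a2b2-/- (KO) mice and subtracted the same difference in Mir181a2b2 flox/flox (flox) mice, and it is called the interaction below, on the log2 scale. All 12 libraries of the series entered it, with 3 libraries in each of 4 groups, and 18702 of the 49315 genes in the count table were tested. The groups were flox mice given vehicle (libraries 1, 3 and 4, numbered as in the labels), flox mice given MTX (libraries 1, 2 and 4), KO mice given vehicle (libraries 1, 2 and 3) and KO mice given MTX (libraries 2, 3 and 4). All mice received a high-fat diet (HFD, 60% fat) for 12 weeks with a weekly intraperitoneal injection, of MTX at 1 mg/kg in the treated groups. The study used male, age-matched mice, and no age is given for this experiment. The KO mice lack the locus in every cell, and the flox mice carry the floxed alleles with no Cre driver named for this experiment. The samples are labelled as white adipose tissue, and the study's methods name eWAT. The labels do not say whether each library came from a separate mouse, so p-values measure the spread between these libraries.

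miR-181a and miR-181b are small RNAs that pair through a short seed near their 5′ end with matching letters in the 3′ untranslated region of messenger RNAs and lower their output. In endothelium miR-181b is known for restraining NF-κB, the transcription factor behind adhesion molecules such as VCAM-1, by targeting the importin Kpna4 that carries it into the nucleus. MTX is a folate antagonist that raises extracellular adenosine, which signals through receptors such as Adora3. Obese eWAT holds adipocytes, macrophages, fibroblasts, vessels and a mesothelial covering, and in males it lies against the epididymis, the duct that matures sperm.

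The mature sequences of the deleted locus, which lies on mouse chromosome 2, and of its paralogs are shown because they share the seed against which 3′ ends were searched below. They are RefSeq sequences on GRCm38.p6, written 5′ to 3′, with the seed (bases 2 to 8) in capitals. The 5p arms of the locus are identical to those made by Mir181a-1 and Mir181b-1 on chromosome 1, which the KO mice keep, and miR-181c-5p and miR-181d-5p have the same seed. Only the 3p arms of miR-181a tell the copies on the 2 chromosomes apart in the seed.
miR-181a-5p: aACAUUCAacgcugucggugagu
miR-181b-5p: aACAUUCAuugcugucgguggguu
miR-181c-5p: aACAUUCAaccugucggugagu
miR-181d-5p: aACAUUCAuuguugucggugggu
miR-181a-2-3p: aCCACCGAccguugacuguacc
miR-181a-1-3p: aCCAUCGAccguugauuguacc
The precursors of the deleted locus could not serve as a check of genotype at this depth. Mir181b-2 had 0 counts in all 12 libraries, and Mir181a-2 had 2 counts in flox MTX library 4 and 0 in the other 11.

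Depth was 19495310 to 23976469 counts per library. Transcripts known from the epididymis stood out in the flox vehicle libraries. A list of 91 epididymis markers made up 10200, 31300 and 3300 CPM (a count scaled to the library total) of flox vehicle libraries 1, 3 and 4. It made up 1020 CPM of flox MTX library 1, and 24.6 to 97.7 CPM of the 8 others. Of these 91 genes, 35 did not exceed 3 counts in any KO library and 6 exceeded 3 counts in all of them. Any gene with this pattern gives a high interaction value, because its fall between flox vehicle and flox MTX is subtracted. Genes were therefore set apart where the lowest flox vehicle value was at least 2 times the highest of the other 9 libraries, which were not taken below 3 counts. This rule uses the same values as the contrast, so its genes are described without a test. It took 1004 of the genes tested (5.37%), which held 2.77%, 7.06% and 1.19% of the counts in flox vehicle libraries 1, 3 and 4, 0.285% in flox MTX library 1 and 0.0508% to 0.116% elsewhere. The genes nearest to the limit were Spata24 (2.00 times) inside it and Dydc1 (1.999 times) outside it. The part of these transcripts, and of macrophage transcripts, in the interactions of other genes was not tested.

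**Figure D1:**
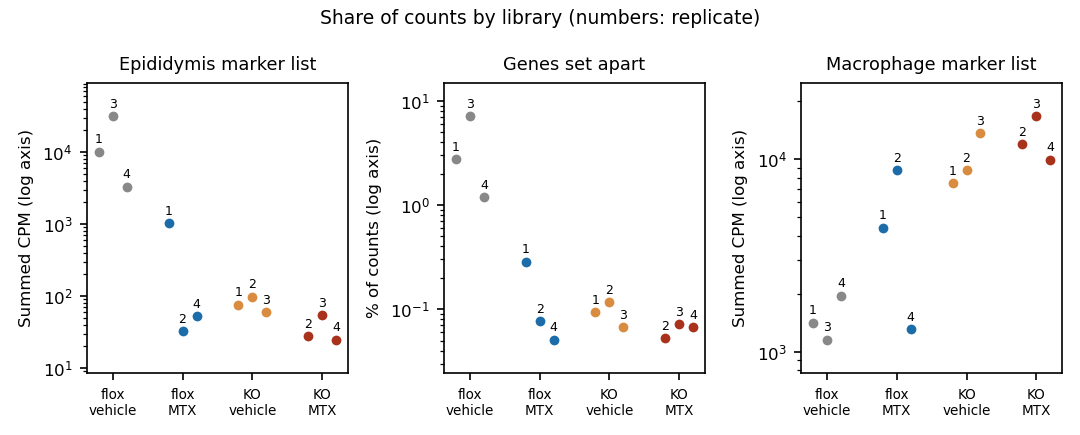
Points show each library, numbered as in the labels, for the summed CPM of 91 epididymis markers, the percentage of counts in the genes set apart, and the summed CPM of 31 macrophage markers, all on log axes. Epididymis markers and set-apart genes were highest in the 3 flox vehicle libraries and next in flox MTX library 1, and macrophage markers were lowest in the flox vehicle libraries and flox MTX library 4.

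The set-apart genes with the highest flox vehicle levels were Crisp1, Cuzd1, Spink8, Ces5a, Cd52 and Serpina16. Crisp1, a secreted protein of the epididymis that coats sperm, stood at 3751, 9201 and 1164 CPM in flox vehicle libraries 1, 3 and 4. It stood at 400, 3.45 and 9.88 CPM in flox MTX libraries 1, 2 and 4, and between 0.131 and 8.49 CPM in the 6 KO libraries. Cd52, which is made both by lymphocytes and by epididymal epithelium, was the exception in its level elsewhere, at 19.4 to 117 CPM in the other 9 libraries against 249.5 to 1912 CPM in flox vehicle. Of 42 testis germ cell markers tested 31 were set apart, and of 59 epididymis markers tested 34 were. Errors were wide for the epididymis genes, with a standard error of 2.34, which draws on all 4 groups, on an interaction of 4.58 for Crisp1. The standard error was 1.82 for its flox response and 1.65 for its KO response.

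An interaction was called where edgeR's quasi-likelihood test gave an adjusted p (Benjamini-Hochberg) below 0.1, with a size of at least 1.5-fold. In all, 185 genes were called, 168 with a higher response to MTX in KO mice (0.898% of genes tested) and 17 with a lower response (0.0909%). Of the 185, 137 (74.1%) were set apart. The 48 others, described below, comprised 31 with a higher and all 17 with a lower response in KO mice. Most of these 48 also differed from the rest in the flox vehicle libraries. Of the 17 lower genes, 14 had all 3 flox vehicle libraries below the other 9, and of the 31 higher genes, 27 had them above. Among the 17698 genes not set apart, 1424 (8.05%) had the flox vehicle libraries above the other 9 and 1278 (7.22%) had them below. Among all genes tested these counts were 2428 (13%) and 1278 (6.83%), against 145 and 159 for flox MTX, 184 and 384 for KO vehicle and 452 and 327 for KO MTX. All 4 groups enter the contrast that chose the 48 genes, so their pattern is a description.

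The median size of the response to MTX was 0.41 in flox mice and 0.225 in KO mice on the log2 scale, over all genes tested. All 17 lower genes rose with MTX in flox mice, by 0.83 to 7.24 on the log2 scale, and all 31 higher genes had a negative response there, 30 of them past the limits of a call. In KO mice 0 of the 48 passed these limits in edgeR, with 7 at an unadjusted p below 0.05, and DESeq2 was not run for this contrast. Their KO responses ranged from -1.35 to 2.82 for the lower genes and from -1.07 to 1.57 for the higher ones.

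**Figure D2:**
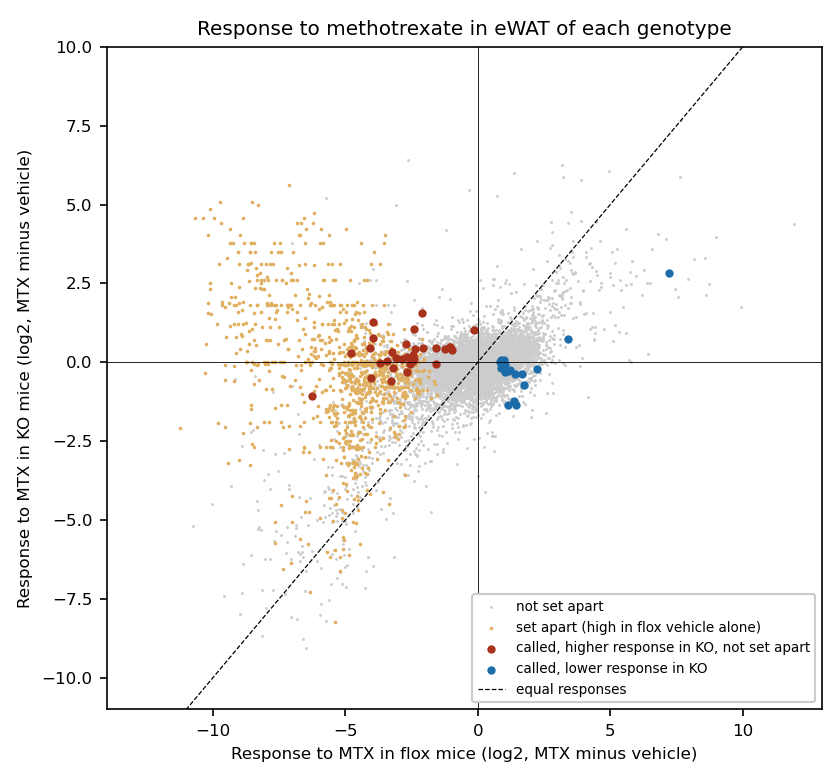
Each point is a gene, with its response to MTX in flox mice on the horizontal axis and in KO mice on the vertical axis, both as log2 of MTX over vehicle. The 17 genes called for a lower response in KO (blue) lie right of the dashed line of equal responses, at flox responses of 0.83 to 7.24, and the set-apart genes (orange) lie at negative flox responses.

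The calls moved with single libraries, and the adjusted p values of the 17 lower genes lay between 0.083 and 0.097 in edgeR, against the limit of 0.1. The count of 185 became 81, 26 and 1371 without flox vehicle libraries 1, 3 and 4, and 6, 5 and 7 without KO vehicle libraries 1, 2 and 3. It became 32 and 120 without flox MTX libraries 2 and 4, and 60 and 9 without KO MTX libraries 2 and 4. The count of 48 genes not set apart became 13, 1 and 981 without flox vehicle libraries 1, 3 and 4, and 0 without any of KO vehicle libraries 1, 2 and 3 or KO MTX library 4. It became 79 and 7 without flox MTX libraries 1 and 2, and 5 and 12 without KO MTX libraries 2 and 3. With the labels' replicate number as a block 0 genes were called by edgeR, with 1535 higher and 777 lower at an unadjusted p below 0.05, whereas DESeq2 without the block called 1248. Scaling by library size alone moved the median interaction of all genes by 0.18, and 39 of 41 called genes that were not set apart were then higher in KO mice, against 31 of 48 with TMM factors. Without flox MTX library 4 the balance turned, with 9 higher and 46 lower among 55 such genes, 11 of which were also among the 48. Without KO MTX library 3 it was 5 higher and 7 lower. The 17 lower genes, which were chosen by their sign, gave 370 values under 22 alternatives, all of them negative, and 125 of these passed the limits.

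Because so few genes were called, the gene lists below are described by the number of members with an unadjusted p below 0.05 in each direction. Among all genes tested these were 1791 with a higher response in KO mice (9.58%) and 1020 with a lower response (5.45%), and the median interaction was -0.05. Among the 17698 genes not set apart, 1156 (6.53%) were higher and 1020 (5.76%) lower. Of the 334 genes in the immune lists, 56 (16.8%) had a lower response in KO mice at this limit and 4 (1.20%) a higher one, with a median interaction of -0.75. Of the 197 vascular genes, 20 (10.2%) were lower and 6 (3.05%) higher, with a median of -0.43. Of the 149 adipose genes, 1 (0.671%) was lower and 9 (6.04%) were higher, with a median of -0.38. One of the higher genes in the immune lists, Gata3, and one in the adipose lists, Fads2, were set apart. The counts of the lists moved with the scaling, the replicate block and single libraries. Scaled by library size alone, 19 immune and 11 vascular genes were lower, where 2.29% of all genes were. With the replicate block 23 immune and 15 vascular genes were lower, where 4.15% of all genes were. Without flox MTX library 4 the immune count was 128 and the vascular count 43, and with flox vehicle library 4 as the only flox vehicle library they were 17 and 10. The adipose count of 1 lower gene became 20 without flox MTX library 2, where 7.05% of all genes were lower, and 9 with the replicate block.

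**Figure D3:**
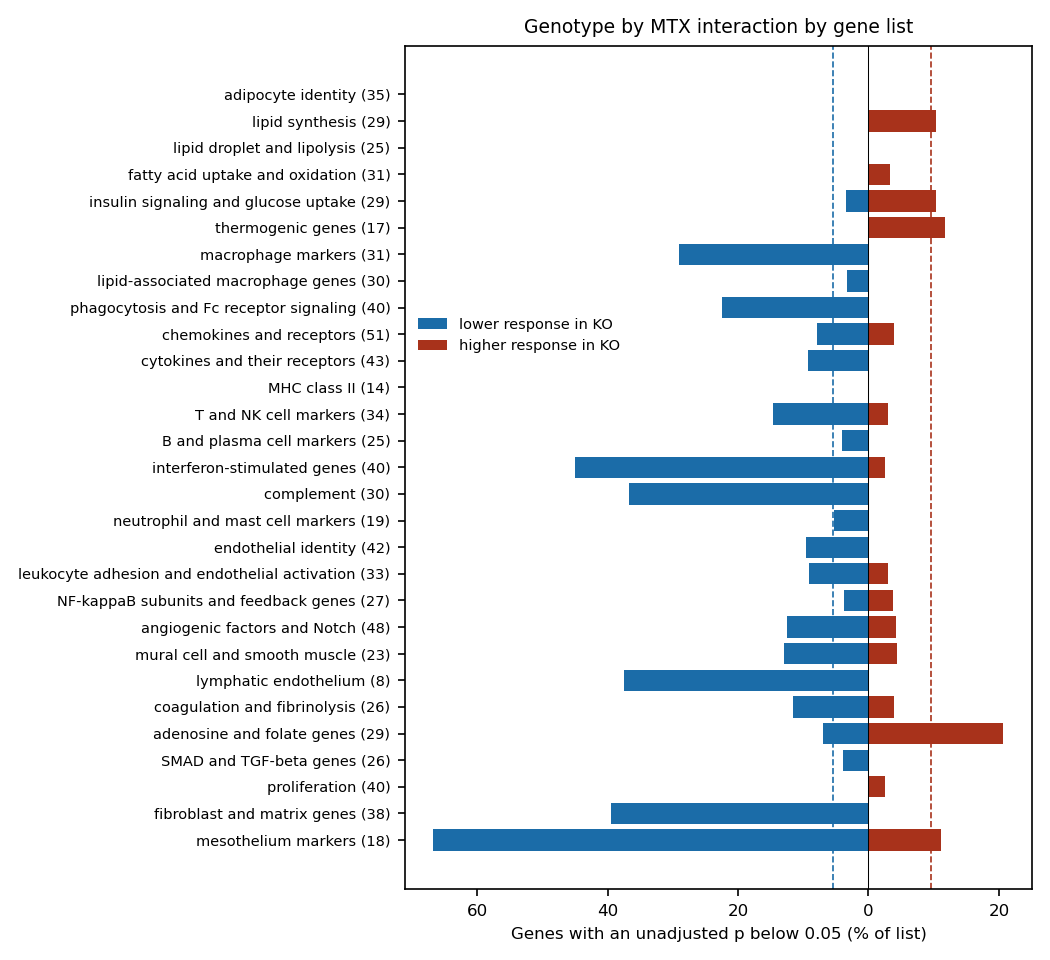
Bars give the percentage of tested members in each list with an unadjusted interaction p below 0.05, to the left for a lower and to the right for a higher response in KO mice, with the number tested in brackets. Dashed lines mark all genes tested (5.45% and 9.58%), and interferon-stimulated genes (45.0%), complement (36.7%), fibroblast and matrix genes (39.5%) and mesothelium markers (66.7%) reach far to the left.

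Interferon-stimulated genes, which encode antiviral effectors induced by interferon, had the largest share of lower responses among the immune lists. Of 40 tested, 18 (45.0%) had a lower response in KO mice at an unadjusted p below 0.05 and 1 a higher one, and the median interaction was -0.70, from a median response of 0.71 in flox and 0.08 in KO mice. The count was between 11 and 21 with any library left out, 12 with flox vehicle library 4 alone in its group, and 6 when only library size was used to scale.
Bst2, which encodes tetherin, a membrane protein that holds budding virus to the cell, lies on chromosome 8 of GRCm38 (71534255 to 71537456, minus strand). It stood at 29.5, 28.0 and 30.8 CPM in flox vehicle libraries 1, 3 and 4 and at 49.1, 70.7 and 57.1 CPM in flox MTX libraries 1, 2 and 4. In KO mice it stood at 67.6, 63.0 and 67.2 CPM with vehicle and at 74.9, 69.7 and 63.5 CPM with MTX. The flox vehicle libraries lay below all others, and the KO groups overlapped each other. The interaction was -0.93 (standard error 0.19, adjusted p = 0.086, edgeR).
Ifitm3 and Lgals9 were not in this list but are also known to respond to interferon. Ifitm3, which encodes a membrane protein that blocks viral entry, was at 65.9 ± 3.52 CPM in flox vehicle and 133 ± 30.7 CPM in flox MTX, and at 165 ± 7.06 and 158 ± 15.7 CPM in KO vehicle and KO MTX (SD, n = 3 each). Its interaction was -1.08 (standard error 0.23, adjusted p = 0.0924, edgeR). Lgals9, which encodes the lectin galectin-9, was at 30.8 ± 4.50 CPM in flox vehicle and 54.6 ± 2.57 CPM in flox MTX, and at 55.1 ± 1.68 and 55.2 ± 3.44 CPM in the KO groups (SD, n = 3 each). Its interaction was -0.83 (standard error 0.17, adjusted p = 0.0847, edgeR). Both genes had the flox vehicle libraries below all others. Ifitm3 belongs to a family of close copies, as does Igha below, and reads shared between copies could be counted for either.
Other interferon-stimulated genes that ranked next by p were not called. Ifi44 had an interaction of -1.44 (adjusted p = 0.156, edgeR), from 1.57 to 2.08 CPM in flox vehicle and 3.31 to 7.25 CPM in flox MTX, while the 6 KO libraries stood between 2.999 and 3.48 CPM. Oasl2, a member of the oligoadenylate synthetase family, had -1.44 (adjusted p = 0.171), and the guanylate-binding proteins Gbp7 and Gbp3 had -0.93 (0.165) and -1.09 (0.183). Gbp7 and Gbp3 have close paralogs, and how reads shared between copies were counted is not stated. Isg20, which encodes an RNA exonuclease, had the opposite sign at 2.25 (adjusted p = 0.165, edgeR). Its flox vehicle values of 120, 244 and 40.7 CPM in libraries 1, 3 and 4 followed the order of the epididymis list, and the other 9 libraries lay between 8.97 and 24.4 CPM.

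The promoters of the tested genes were searched for GAAA, any 2 bases and GAAA again, or on the other strand TTTC, any 2 bases and TTTC, the core of the interferon-stimulated response element. The window ran from 250 bases before to 50 bases after each RefSeq start site on GRCm38.p6, and the search was chosen after the values were seen. The motif was in 3.44% of all 32851 promoters, in 3.90% of 12939 tested genes with a promoter sequence, and in 17 of 30 interferon-stimulated genes (56.7%). Of the 17 genes called for a lower response in KO mice, 11 had a promoter sequence and 3 held the motif, Bst2, Ifitm3 and Lgals9. Of 23 such promoters among the called higher genes, 0 held it. A match is a description of these letters and not a site of binding. Stretches of 30 bases around a match are shown on the gene's strand, 5′ to 3′, with the motif in capitals, and the 2 matches in Bst2 overlap by GAAA.
Bst2, chr8:71537583-71537612 (minus strand): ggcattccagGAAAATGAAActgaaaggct
Bst2, chr8:71537577-71537606 (minus strand): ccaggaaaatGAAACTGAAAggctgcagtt
Ifitm3, chr7:141010706-141010735 (minus strand): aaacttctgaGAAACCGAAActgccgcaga
Lgals9, chr11:78984890-78984919 (minus strand): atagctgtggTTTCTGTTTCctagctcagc

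Macrophage genes mostly had negative interactions, with wide errors. Of 31 macrophage markers, 9 (29.0%) had an unadjusted p below 0.05 and 30 had a negative interaction (median -1.47). Of 30 complement genes, 11 (36.7%) had a lower response at this limit, with 28 negative (median -1.04). Scaled by library size alone the macrophage count was 2 and the complement count 4, and with the replicate block they were 0 and 2. The macrophage count was 27 without flox MTX library 4 and 0 with flox vehicle library 4 alone in its group, and the complement count was 19 and 3. The summed macrophage list stood at 1150 to 1950 CPM in flox vehicle, at 4390, 8710 and 1310 CPM in flox MTX libraries 1, 2 and 4, at 7510 to 13600 CPM in KO vehicle and at 9910 to 16600 CPM in KO MTX, with all 31 genes above 3 counts in every library. In bulk tissue fewer cells of a type and less RNA per cell cannot be told apart.
Vsig4, the complement receptor of resident macrophages, lies on the X chromosome (96247203 to 96293438, minus strand) and was the called gene of this group. It rose from 1.17, 0.590 and 0.970 CPM in flox vehicle libraries 1, 3 and 4 to 7.46, 14.4 and 6.94 CPM in flox MTX libraries 1, 2 and 4. In KO mice it was at 3.98, 5.51 and 5.62 CPM with vehicle and at 6.48, 12.3 and 6.64 CPM with MTX. The flox vehicle libraries lay below all others, and flox MTX and KO MTX overlapped. Its interaction was -2.64 (standard error 0.54, adjusted p = 0.0847, edgeR), and unlike the macrophage sum its value in flox MTX library 4 was close to that of library 1.
C1qa, a subunit of the C1q complex that macrophages secrete, stood at 73.9, 58.7 and 106 CPM in flox vehicle libraries 1, 3 and 4 and at 336, 716 and 133 CPM in flox MTX libraries 1, 2 and 4, with 435 to 918 CPM in the KO libraries. Its interaction was -1.84 (standard error 0.68, adjusted p = 0.249, edgeR) and was not called. C3, Cfb and Serping1 had interactions of -1.38, -1.01 and -1.44, each with an unadjusted p below 0.05. In the phagocytosis list 9 of 40 genes (22.5%) had a lower response at this limit, among them Tyrobp, Fcer1g and the NADPH oxidase subunits Ncf1 and Ncf4.

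Among genes of lymphocytes, 1 was called. Igha, the constant region of immunoglobulin A, had the largest interaction in size among the 17 lower genes, at -4.41 (standard error 0.88, adjusted p = 0.0836, edgeR). It stood at 11.8, 5.39 and 12.9 CPM in flox vehicle libraries 1, 3 and 4 and at 347, 2970 and 1225 CPM in flox MTX libraries 1, 2 and 4. In KO mice it stood at 24.7, 15.3 and 29.8 CPM with vehicle and at 190, 154 and 150 CPM with MTX. Every MTX library was above every vehicle library, and the flox MTX libraries were above all others. The response was 7.24 in flox mice (adjusted p = 0.00254) and 2.82 in KO mice (adjusted p = 0.293, edgeR). Of 25 B and plasma cell markers, 1 (4%) had a lower response at an unadjusted p below 0.05, Tnfrsf17, the plasma cell receptor BCMA, at -2.59. Of 34 T and NK cell markers, 5 (14.7%) were lower, with Themis, a T cell signaling adaptor, at -2.18 (adjusted p = 0.161, edgeR), and Trac, Il7r, Nkg7 and Thy1. In the same list the set-apart transcription factor gene Gata3 had a value of 3.13, and Cd5 (1.26) and Tcf7 (0.49) also had a positive sign.

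**Figure D4:**
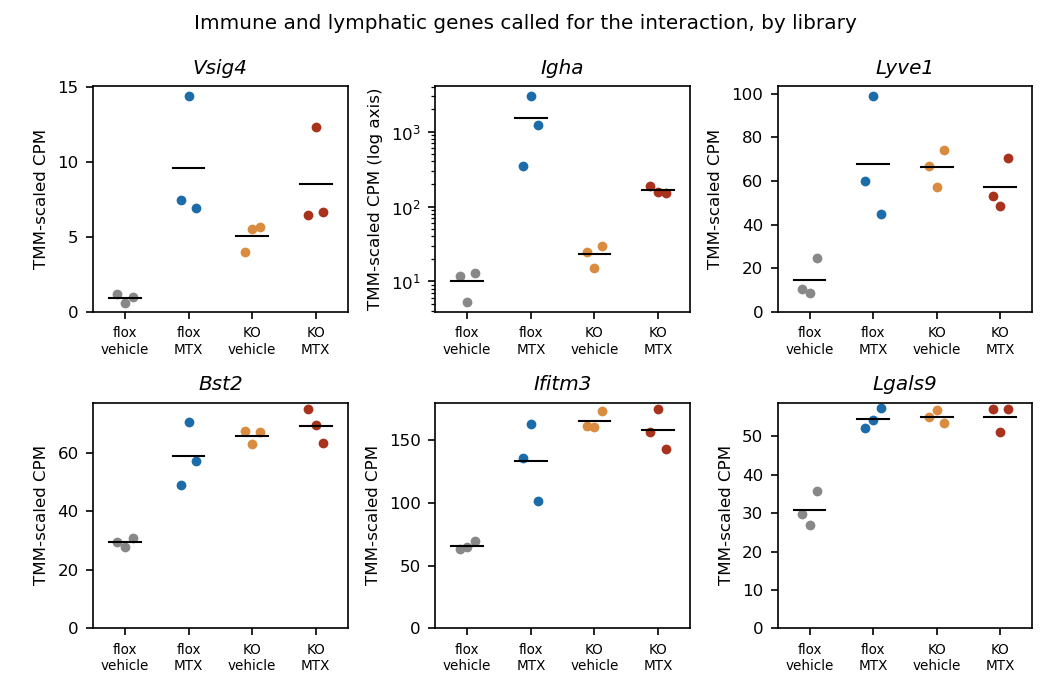
TMM-scaled CPM of Vsig4, Igha, Lyve1, Bst2, Ifitm3 and Lgals9 in each library (points) with the group mean (bar), with a log axis for Igha. The 3 flox vehicle libraries lie below the other 9 in each of the 6 panels, and the flox MTX libraries of Igha, at 347 to 2970 CPM, lie above all others.

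Among vascular genes, the lymphatic group stood lowest. Of 8 lymphatic endothelium genes, 3 (37.5%) had a lower response in KO mice at an unadjusted p below 0.05, and all 8 had a negative interaction, with a median of -1.35. Lyve1, the hyaluronan receptor of lymphatic endothelium that resident macrophages also carry, lies on chromosome 7 (110850607 to 110863239, minus strand). It stood at 10.6, 8.69 and 24.6 CPM in flox vehicle libraries 1, 3 and 4 and at 60.0, 99.0 and 45.0 CPM in flox MTX libraries 1, 2 and 4. KO vehicle stood between 57.3 and 74.3 CPM and KO MTX between 48.5 and 70.4 CPM, so the flox vehicle libraries lay below all others and the other groups overlapped. Its interaction was -2.43 (standard error 0.54, adjusted p = 0.097, edgeR). The other members at this limit were Pdpn, which encodes podoplanin, at -1.17, and the transcription factor Foxc2 at -1.56, while Prox1, which specifies lymphatic fate, had -1.53 (adjusted p = 0.517, edgeR). Vegfc, the growth factor for lymphatic vessels, went from 4.96 to 6.46 CPM in flox vehicle to 9.36 to 14.5 CPM in flox MTX, against 7.76 to 12.5 CPM in the KO libraries (interaction -1.26, adjusted p = 0.126, edgeR). The summed lymphatic list was 53.0 to 85.8 CPM in flox vehicle, 116, 200 and 80.3 CPM in flox MTX libraries 1, 2 and 4, and 138 to 196 CPM in KO mice.
Of 42 endothelial identity genes, 4 (9.52%) were lower at this limit, and 38 had a negative interaction (median -0.53). Cd34, a sialomucin of endothelium and of stromal progenitors, stood at 69.9, 67.1 and 92.9 CPM in flox vehicle libraries 1, 3 and 4, between 114 and 130 CPM in flox MTX, between 145 and 192 CPM in KO vehicle and between 125 and 148 CPM in KO MTX. Its interaction of -0.97 was not called (standard error 0.22, adjusted p = 0.101, edgeR). The others were Eng, Icam2 and Tmem100. Notch1, the receptor that patterns sprouting vessels, was one of the 6 vascular genes with a higher response at an unadjusted p below 0.05 (1.03, adjusted p = 0.179, edgeR). It stood at 56.4 to 105 CPM in flox vehicle and 31.4 to 47.2 CPM in the other 9 libraries, with libraries 1, 3 and 4 of flox vehicle at 61.3, 105 and 56.4 CPM. Plaur, the urokinase receptor, and Des, the intermediate filament of smooth muscle and pericytes, had interactions of -1.31 (adjusted p = 0.194) and -0.67 (adjusted p = 0.182, edgeR).

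In a smaller set of genes the KO mice had the larger response. Among the 2176 genes that were not set apart and had an unadjusted p below 0.05, the KO response was the larger in size in 298 (13.7%), against 30.9% of all genes not set apart. By list domain these were 8 of 26 vascular genes, 1 of 59 immune genes and 1 of 9 adipose genes at this limit. The genes below were named by their values, with Bmp4, Tmem100 and Gpam taken by the rule of smallest p in a domain. Adora3, described further below, was named from the study.
Bmp4, a ligand of the BMP pathway made by endothelium and preadipocytes, lies on chromosome 14 (46383520 to 46390669, minus strand). It stood at 14.1, 18.2 and 11.5 CPM in KO vehicle libraries 1, 2 and 3 and at 8.004, 7.63 and 5.99 CPM in KO MTX libraries 2, 3 and 4. In flox mice it stood at 11.6, 8.46 and 11.8 CPM with vehicle and at 12.3, 16.997 and 12.1 CPM with MTX. KO MTX lay below all other libraries, and the flox groups did not overlap each other. Its interaction was -1.39 (standard error 0.33, adjusted p = 0.104, edgeR), from a response of -1.02 in KO mice and 0.38 in flox mice.
Tmem100, an endothelial target of BMP signaling, stood at 17.7, 13.8 and 15.4 CPM in KO vehicle libraries 1, 2 and 3 and at 7.13, 10.8 and 10.3 CPM in KO MTX libraries 2, 3 and 4, while flox vehicle ranged from 4.37 to 7.71 CPM and flox MTX from 7.50 to 9.44 CPM. KO vehicle lay above all other libraries, and the interaction was -1.29 (standard error 0.35, adjusted p = 0.138, edgeR). Smtn, which encodes the smooth muscle protein smoothelin, ran at 63.1 to 83.7 CPM in KO vehicle and 47.2 to 62.4 CPM in KO MTX, and both were above the flox libraries at 29.9 to 46.5 CPM. The remaining vascular genes of this kind were Edn1 (endothelin 1, -0.74), Pdgfa (-0.50), Serpine2 (-0.85), Foxc2 (-1.56) and Traf6 (0.45), as interaction values each with an unadjusted p below 0.05 in edgeR and none of them called.
Slc25a30, a mitochondrial carrier, was the only called gene of the 31 higher ones with the KO MTX libraries above all others. It stood at 6.90, 8.34 and 7.50 CPM in KO vehicle libraries 1, 2 and 3 and at 12.8, 16.99 and 16.3 CPM in KO MTX libraries 2, 3 and 4, and between 8.19 and 10.4 CPM in the flox libraries. Its interaction was 1.15 (standard error 0.24, adjusted p = 0.089, edgeR), with a response of 1.02 in KO mice (adjusted p = 0.293) and -0.13 in flox mice. Ccnd1, which encodes cyclin D1, ran opposite ways. It stood at 34.8 to 50.7 CPM in flox vehicle and 23.0 to 30.6 CPM in flox MTX. In KO mice it stood at 35.8 to 49.9 CPM with vehicle and 48.9 to 80.3 CPM with MTX. The KO groups overlapped each other, and the flox groups did not. The responses were similar in size, at 0.69 in KO mice and -0.62 in flox mice (standard error 0.22 each). Ccnd1 had an interaction of 1.31 (standard error 0.31), which was not called (adjusted p = 0.104, edgeR). It was the only 1 of 40 proliferation genes at an unadjusted p below 0.05.
Cxcl5, a neutrophil-attracting chemokine and the immune gene of this kind, had 0 counts in all 3 KO vehicle libraries and stood at 0.13, 0.563 and 0.0437 CPM in KO MTX libraries 2, 3 and 4 and at 0.0472 to 0.629 CPM in the flox libraries, where 3 counts amount to 0.118 to 0.188 CPM over all libraries. KO MTX library 3 alone was clear of that level in its group, and no fold is given.

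**Figure D5:**
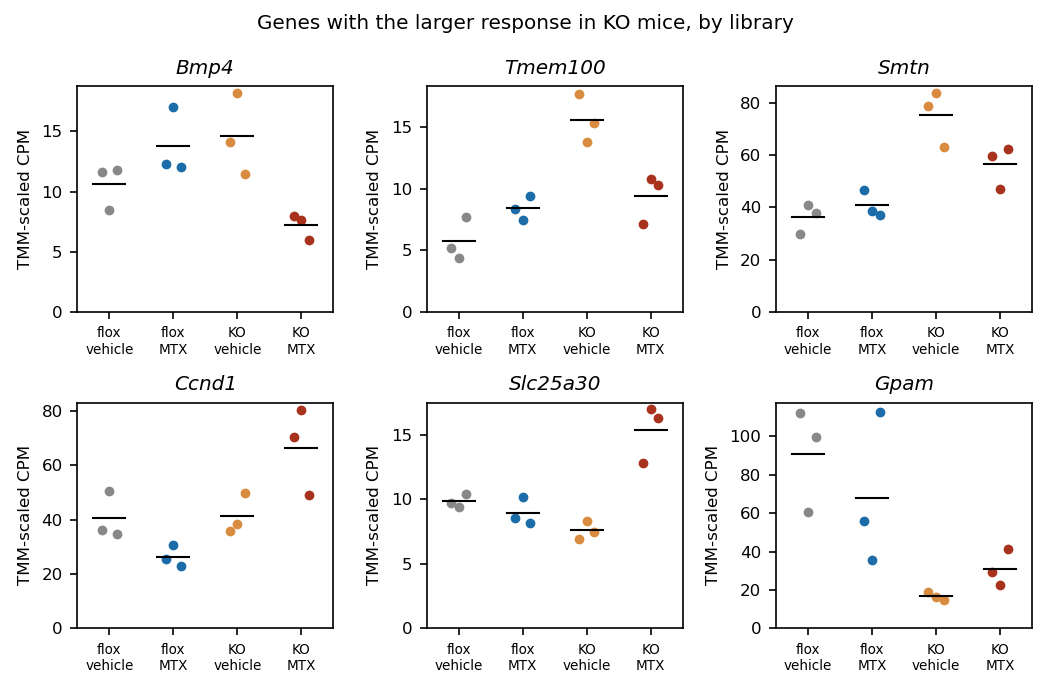
TMM-scaled CPM of Bmp4, Tmem100, Smtn, Ccnd1, Slc25a30 and Gpam in each library (points) with the group mean (bar). KO MTX lay below all other libraries for Bmp4 (5.99 to 8.004 CPM) and above them for Slc25a30 (12.8 to 16.99 CPM), and the flox MTX libraries of Gpam spanned 35.6 to 113 CPM.

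All 35 adipocyte identity genes had a negative interaction, from -1.42 to -0.11 with a median of -0.60, and 0 of them had an unadjusted p below 0.05 in edgeR. Their median response was 0.23 in flox mice and -0.44 in KO mice. Adipoq, which encodes adiponectin, stood at 3217, 1080 and 2194 CPM in flox vehicle libraries 1, 3 and 4 and at 2209, 1860 and 3618 CPM in flox MTX libraries 1, 2 and 4. In KO mice it stood at 1797, 1243 and 726 CPM with vehicle and at 1016, 375 and 1131 CPM with MTX, and the libraries of each genotype overlapped between treatments (interaction -0.82, standard error 0.72, adjusted p = 0.601, edgeR). The summed adipocyte list was 42700 to 94000 CPM in flox vehicle, 59200 to 102000 CPM in flox MTX, 40600 to 63800 CPM in KO vehicle and 27900 to 50500 CPM in KO MTX, with all 35 genes above 3 counts in every library.
Over all adipose lists, 8 of the 148 genes that were not set apart were higher at an unadjusted p below 0.05 and 1 was lower. The shares over all genes not set apart were 6.53% higher and 5.76% lower. Of these adipose genes Acsl4 was called. The desaturase gene Fads2 was set apart and had a value of 3.10. Acsl4, the acyl-CoA ligase that prefers arachidonic acid, lies on the X chromosome (142317993 to 142390535, minus strand). It stood at 82.9, 141 and 57.8 CPM in flox vehicle libraries 1, 3 and 4, at 43.7, 44.5 and 47.0 CPM in flox MTX, at 32.0, 30.4 and 34.5 CPM in KO vehicle and at 46.1, 45.4 and 44.7 CPM in KO MTX. The 3 flox vehicle libraries lay above all others and ranked as for the epididymis list, and KO MTX lay above KO vehicle without overlap. Its interaction was 1.55 (standard error 0.35, adjusted p = 0.0983, edgeR).
Pank1, which makes the first step of coenzyme A synthesis, had an interaction of 2.44 (adjusted p = 0.124), glycerol kinase (Gk) 2.67 (0.169) and the desaturase Fads1 1.42 (0.266, edgeR). Their flox vehicle libraries ran in the same order, at 21.7, 56.1 and 15.3 CPM for Pank1, at 92.2, 229 and 58.5 CPM for Gk and at 108, 239 and 67.5 CPM for Fads1 in libraries 1, 3 and 4. This order was found in 28.1% of all genes tested and in 57.9% of those set apart. Irs2, the insulin receptor substrate, and Gpam, the first enzyme of triglyceride synthesis, did not have this order. Irs2 stood at 84.3, 54.6 and 77.5 CPM in flox vehicle libraries 1, 3 and 4, at 38.2 to 58.5 CPM in flox MTX, at 18.8 to 20.6 CPM in KO vehicle and at 20.2 to 27.9 CPM in KO MTX (interaction 0.88, adjusted p = 0.188, edgeR). Gpam was not called in either genotype, with 14.8 to 18.99 CPM in KO vehicle, 22.6 to 41.4 CPM in KO MTX and wide flox ranges of 60.5 to 112 and 35.6 to 113 CPM (interaction 1.31, adjusted p = 0.288, edgeR). Pdk1, a kinase that inhibits pyruvate dehydrogenase, had 0.87 (adjusted p = 0.318, edgeR).

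Other genes with a lower response in KO mice are known from mesothelium and stroma. Of 18 mesothelium markers, 12 (66.7%) had a lower response at an unadjusted p below 0.05, with a median of -1.58, and the count was between 10 and 14 with any library left out and 5 with flox vehicle library 4 alone in its group. The keratins Krt8 (1.98) and Krt18 (2.55) of this list were set apart and had the opposite sign. Cldn15, a tight junction claudin of mesothelium, was called with an interaction of -1.08 (adjusted p = 0.097, edgeR). It stood at 30.9, 19.5 and 28.5 CPM in flox vehicle libraries 1, 3 and 4, at 45.6 to 53.2 CPM in flox MTX, at 51.3 to 63.8 CPM in KO vehicle and at 47.5 to 57.8 CPM in KO MTX, with the flox vehicle libraries below all others. Msln, which encodes mesothelin, had -2.14 (adjusted p = 0.151) and Upk3b, a uroplakin of mesothelium, -1.68 (0.156, edgeR). Of 38 fibroblast and matrix genes, 15 (39.5%) had a lower response, among them Col1a1 (-1.35), Dcn (-1.33), Bgn (-1.57) and Timp1 (-2.44). The count was between 4 and 22 with any library left out, 8 when only library size was used to scale and 5 with the replicate block. It was lowest of all with flox vehicle library 4 alone in its group.
Fgf18, a growth factor, was at 1.56 to 1.77 CPM in flox vehicle, 4.25 to 7.50 CPM in flox MTX, 4.08 to 4.87 CPM in KO vehicle and 2.88 to 4.31 CPM in KO MTX, with an interaction of -2.06 (adjusted p = 0.083, edgeR). Igfbp6, which binds insulin-like growth factor 2, had -1.78, Csrp2, a LIM protein of smooth muscle and fibroblasts, -1.46, the monooxygenase Fmo2 -1.43, the sulfotransferase Sult1a1 -1.35 and the transcription factor Jdp2 -0.80. Lrrn3 (-2.77), Myoc (-2.62), Gm37060 (-2.49) and 2810468N07Rik (-2.46) were at 0.173 to 2.82 CPM in all libraries, and each overlaps another annotated gene, so that without a stated strand setting their reads cannot be told from those of Immp2l, Myocos, Rasal2 and Sox8. The same holds for Sult1a1 (Sgf29) and Jdp2 (Gm47863). All 4 were higher in KO vehicle than in KO MTX without overlap, at 2.16 to 2.82 against 0.826 to 1.39 CPM for Myoc.

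Of the 31 called higher genes that were not set apart, the 5 largest were Bcl2l14 (5.23), Sectm1a (5.2), Syngr4 (5.08), Spag6 (4.73) and Cacna1b (4.50). In 22 of the 31 flox vehicle library 3 was highest and library 4 lowest of that group, as for the epididymis list. The same order was found in 28.1% of all genes tested and in 40.1% of the called genes that were set apart. Bcl2l14, a BCL2 family member, stood at 11.1, 14.5 and 3.42 CPM in flox vehicle libraries 1, 3 and 4 and between 0.250 and 2.19 CPM in the other 9 libraries (adjusted p = 0.044, edgeR). Cacna1b, a neuronal calcium channel subunit, stood at 22.1, 46.3 and 6.002 CPM in flox vehicle and between 0.625 and 3.31 CPM elsewhere. Sectm1a, Syngr4 and Spag6, a sperm flagellum protein, had 0 to 0.136 CPM in flox MTX, at or under 3 counts, so that the fitted sizes depend on the prior count. Bcl2l14, Cacna1b and Spag6 also overlap annotated genes on the opposite strand, whose reads cannot be told apart from theirs. Odf2 and Tssk6, a sperm tail protein and a kinase of spermatids, were also among the 31. Slc19a2, the thiamine transporter of the folate carrier family, stood at 16.4, 29.8 and 14.8 CPM in flox vehicle libraries 1, 3 and 4, between 6.13 and 7.75 CPM in flox MTX, between 7.10 and 7.50 CPM in KO vehicle and between 8.61 and 11.8 CPM in KO MTX, with an interaction of 2.03 (adjusted p = 0.0669, edgeR).

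Genes that the study names for its pathway did not pass. Vcam1 stood at 14.0, 14.5 and 32.9 CPM in flox vehicle libraries 1, 3 and 4, at 45.3, 82.2 and 24.2 CPM in flox MTX libraries 1, 2 and 4, at 45.6 to 48.7 CPM in KO vehicle and at 66.0 to 79.9 CPM in KO MTX. The flox groups overlapped, and KO MTX lay above KO vehicle without overlap. The response was 1.31 in flox mice (adjusted p = 0.0465) and 0.64 in KO mice (adjusted p = 0.744, edgeR), and the interaction was -0.67 (standard error 0.57, adjusted p = 0.592, edgeR). Icam1 had -0.80 (standard error 0.43, adjusted p = 0.409), and Lgals3, which encodes the macrophage antigen Mac2, -1.62 (standard error 0.74, adjusted p = 0.335, edgeR). Lgals3 stood at 149 to 228 CPM in flox vehicle, at 614, 852 and 149 CPM in flox MTX libraries 1, 2 and 4, and at 1324 to 2972 CPM in KO mice. Its response in flox mice was 1.46 (adjusted p = 0.0762, edgeR). In flox eWAT the study reported less Vcam1 mRNA by PCR and a smaller Mac2-stained area with MTX. In KO eWAT it reported no inhibitory effect of MTX on either. Its groups for both measures held more mice than the groups here have libraries. The flox responses of Vcam1 and Lgals3 here had the opposite sign, the stain measures protein and not RNA, and the cause of the difference was not tested. Sele, which encodes E-selectin, had 0 to 8 counts per library and was not tested.
Adora3, the adenosine A3 receptor, stood at 0.453, 0.551 and 0.375 CPM in KO vehicle libraries 1, 2 and 3 and at 0.957, 1.21 and 0.699 CPM in KO MTX libraries 2, 3 and 4, with 0.236 to 0.554 CPM in flox mice, so that KO MTX lay above all other libraries at this low level. Its interaction was 1.35 (standard error 0.58, adjusted p = 0.303, edgeR). The interactions of Smad2, Smad3 and Smad4, the transducers of TGF-β, were 0.31, 0.09 and -0.02, with standard errors of 0.25, 0.21 and 0.14. Those of the miR-181b targets Kpna4, Card10 and Phlpp2 were -0.17, 0.01 and 0.47, with standard errors of 0.29, 0.28 and 0.20, and the signs of Smad3, Smad4, Kpna4 and Card10 changed between alternatives.
Among 29 adenosine and folate genes, 6 (20.7%) had a higher response in KO mice at an unadjusted p below 0.05, including the set-apart gene Nt5e, and 2 (6.90%) a lower one. Mthfd2 and Shmt2, mitochondrial enzymes of one-carbon metabolism, had interactions of 2.41 and 1.59, and neither was called. The standard errors were 0.64 and 0.58 (adjusted p = 0.136 and 0.241, edgeR). Flox vehicle libraries 1, 3 and 4 stood at 78.5, 168 and 38.2 CPM for Mthfd2 and at 65.9, 157 and 32.6 CPM for Shmt2, in the order of the epididymis list. Mtr, methionine synthase, had 0.90 and Tyms, thymidylate synthase, -0.97 (adjusted p = 0.17 and 0.18, edgeR).

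The 3′ untranslated regions of GENCODE M21 transcripts were searched for TGAATGT, the match to the seed shared by the miR-181 5p arms, on the transcript strand and in the longest such region of each gene. Of 14485 tested genes that were not set apart and had such a region, 2597 (17.9%) held a match. Their median interaction was -0.03, against -0.09 for the 11888 genes without a match, and the median response was 0.10 in both groups in flox mice and 0.08 against 0.00293 in KO mice. At an unadjusted p below 0.05, 7.97% had a higher and 4.20% a lower response in KO mice, against 6.91% and 6.22% of genes without a match. Genes with a match had longer regions (median 2379 against 929 bases), and the part of this in the difference was not tested. Of the 48 called genes, 44 had such a region, and 5 of 30 higher and 1 of 14 lower ones held a match. Stretches of 30 bases are shown for Slc19a2 and Acsl4, called higher genes with a match followed by A, for Jdp2, the only called lower gene with a match, and for Icam1, with the match in capitals.
Slc19a2: gatagctatttcTGAATGTatatttcatgg
Acsl4: acattttaatttTGAATGTagttatacatt
Jdp2: atacttaatcaaTGAATGTttacagactgg
Icam1: tcagtgaggaggTGAATGTataagttatgg
Vcam1, not shown, held 2 matches in its region, 0 of them followed by A. Kpna4, Card10 and Phlpp2 held no match in this region, which says only that these letters were not in it.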

How the data were processed

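RNA of eWAT was sequenced in 12 libraries, 3 per group. According to the submitters' processing notes and the study's methods, the authors trimmed reads with Trimmomatic (0.36), aligned them to mm10 (GRCm38) with STAR (2.5.2b) and used featureCounts (Subread 1.5.2) to count per Ensembl gene. Strand and multi-mapping settings are not given in the sources used here, and the methods (ribosomal RNA depletion) and labels (polyA RNA) differ on library type. The deposited values are raw counts per gene.

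Counts were analysed in R (4.3.3) with edgeR (4.0.16): filterByExpr by group, TMM factors, 1 coefficient per group, quasi-likelihood F-test, Benjamini-Hochberg adjustment over 18702 genes. The median library total was 21824170.5 counts. CPM per gene are TMM-scaled, marker sums are shares of all counts, and the limit for a count of 0 is 3 counts, counting error only. Standard errors are the interaction divided by the square root of F. Positions and 3′ regions are from GENCODE M21 and promoters from RefSeq (GRCm38.p6), and 99.3% of genes had a symbol.

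The members and lists were chosen with earlier results of these data known. Named genes are the 8 smallest p per domain (adipose, immune, vascular), genes the study names, the 5 largest called genes in each direction and all called lower ones, and the 6 most abundant set-apart genes. Alternatives were DESeq2 (1.42.0), other scalings and filters, a robust fit, a replicate block, other limits and each library left out. On simulated counts for this interaction over 18334 genes, edgeR called 58 of 100 genes changed 4-fold, 5 of 100 changed 2-fold and 7 unchanged genes. Unchanged genes had a common mean in all libraries and a trended dispersion, without the differences between groups and libraries seen here. These rates may therefore not hold for the real counts. Within groups no library duplicated another (chi-square per degree of freedom at least 12.9). Some genes are not reported here.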

Additional observations from a re-analysis of the deposited data

Results flagged for a closer look

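The interaction tests whether the response to MTX differs between the genotypes, and 185 genes passed it, 48 of them not set apart. Of the named genes that were not set apart, those with a higher response in KO mice were Acsl4 (1.55), Bcl2l14 (5.23), Sectm1a (5.2), Syngr4 (5.08), Spag6 (4.73) and Cacna1b (4.50), as log2 interactions. Those with a lower response were Igha (-4.41), Lrrn3 (-2.77), Vsig4 (-2.64), Myoc (-2.62), Gm37060 (-2.49), 2810468N07Rik (-2.46), Lyve1 (-2.43), Fgf18 (-2.06), Igfbp6 (-1.78), Csrp2 (-1.46), Fmo2 (-1.43), Sult1a1 (-1.35), Ifitm3 (-1.08), Cldn15 (-1.08), Bst2 (-0.93), Lgals9 (-0.83) and Jdp2 (-0.80). The groups have 3 libraries each, so no outlier test within a group was run.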

How the results depend on the processing

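Of 1261 values for 58 named genes under up to 22 alternatives, 870 kept their direction and side of the limits, 324 lost a call, 48 gained 1 and 19 changed sign. The 185 called genes became 1248 with DESeq2, 472 with no filter, 1 with at least 10 counts in every library (1056 higher and 855 lower at an unadjusted p below 0.05), 33 at an adjusted p below 0.05, and 5 with flox vehicle library 4 alone in its group. The 48 not set apart became 739 with DESeq2, 166 with no filter, 0 with at least 10 counts in every library, 1 with flox vehicle library 4 alone and 30 with a robust fit. With 1 library left out the counts ranged from 5 to 1371 and from 0 to 981. A factor of 4 set apart 347 genes. DESeq2 called all 185 genes again, and leaving out flox vehicle library 3 with flox MTX library 1 gave 185 genes, 85 of them shared. The cause of these changes was not tested. The alternatives with flox vehicle library 4 alone, and with 2 libraries out, were chosen after seeing the data.

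With the replicate number as a block, 0 genes were called and 0 of those not set apart. Residuals of 12 same-number pairs had a median correlation of 0.0353 (-0.273 to 0.254), against 0.0112 for 42 other pairs. With so few pairs and so wide a range, these values cannot decide whether the numbers mark a pairing or a batch. Why the calls were lost was not tested.

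Signs changed for small interactions. Scaled by library size alone, Smad4 was 0.16 and Kpna4 0.0365, and Smad4 was 0.0066 with TMM factors computed without set-apart genes. Card10 was -0.0195 with no filter. With flox vehicle library 4 alone, Vcam1 was 0.0146, Smad4 0.0453, Kpna4 0.0866 and Card10 -0.23, and Smad3 was -0.037 with flox vehicle library 3 and flox MTX library 1 out. With 1 library left out the ranges were -0.0452 to 0.21 for Smad3, -0.0729 to 0.0359 for Smad4, -0.37 to 0.0337 for Kpna4, -0.24 to 0.13 for Card10 and -0.996 to 7.33 for Cuzd1. Depth limits genes near 3 counts per library, such as Sectm1a and Spag6.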
